A study of Mus musculus with 70 samples.

Results

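RNA of CD45+ cells from histotripsy-abscopal tumors was compared between day 7 and day 3 after ablation, with all 4 libraries labelled abscopal day 7 set against all 7 labelled abscopal day 3. These 11 libraries were taken, by their labels alone, out of 70 libraries in the series, 34 of which were of CD45+ cells. By the study's methods, C57BL/6 mice of both sexes carried B16F10 tumors, grown from a single established mouse melanoma line, on both flanks, and one tumor of each mouse received partial histotripsy ablation, which breaks tissue mechanically with focused ultrasound. The abscopal tumor grew on the other side and was not ablated, so both abscopal groups came from mice with an ablated tumor elsewhere, and no abscopal group without ablation exists. For reference, the CD45+ cells of sham control tumors (4 libraries on day 3 and 10 on day 7) and of histotripsy-treated tumors (6 and 3) entered the same fit. Mice were young adults at purchase by the study's methods, were assigned to groups without randomization, and neither age, sex nor the animal of origin is labelled for a library. The Y-linked genes Ddx3y and Eif2s3y had 0 counts in all 11 libraries, so no library showed RNA of these male markers. Of the 5 genes on the sex chromosome list, which also holds Xist and the Y-linked Uty and Kdm5d, 3 had 3 counts or fewer in each library. Xist was abundant, so Uty or Kdm5d exceeded 3 counts in some library, and the sex of the mice is not settled. The study's figure legends count mice per group, but no label ties a library to an animal. The p-values measure the spread between these libraries, and how much of it is technical is not known.

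CD45, encoded by Ptprc, is the surface phosphatase carried by nucleated blood cells, and sorting on it collects T, B and NK cells together with neutrophils, monocytes, macrophages and dendritic cells. In a tumor, monocytes that arrive from blood can mature into macrophages, which take up dead cells and debris, make the complement protein C1q and present peptides on MHC class II. Regulatory T cells, marked by Foxp3 and a high level of the interleukin 2 receptor, restrain other T cells and dendritic cells. In bulk RNA, fewer cells of a type and less RNA per cell cannot be told apart.

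Totals ran from 1104207 to 2824959 counts in the day 3 libraries (median 1934075) and from 896229 to 2126043 in the day 7 libraries. Ptprc lay between 786 and 1204 CPM (counts scaled to a common library size) on day 3 and between 799 and 1200 on day 7, and its log2 fold change was -0.06 (adjusted p = 0.927, edgeR). Every day 3 library came in a separate table from every day 7 library, so any batch that goes with the tables cannot be told apart from the day. Day 3 replicates 1 and 4 stood apart on the first principal component (-28.4 and -16.0, against -8.78 to 13.2 in the other 9), which held 31.4% of the variance, and both carried the most melanoma RNA. The 12 melanoma and pigment genes summed to 1298 and 2392 CPM in them, against 122 to 340 CPM in the other day 3 libraries and 219, 193, 531 and 335 CPM in day 7 replicates 1 to 4. The most abundant of them was Dct, a melanin synthesis enzyme (987 and 1551 CPM in the 2 libraries). Pmel, a structural protein of pigment granules, reached 251 CPM in day 3 replicate 4, and 3.27 to 70.5 CPM in the other day 3 libraries. Of the markers of other cells outside the blood, 7 of 15 fibroblast, 6 of 12 endothelial, 8 of 12 keratinocyte and 10 of 13 skeletal muscle genes had 3 counts or fewer in each of the 11 libraries, and Col1a1, the main collagen chain, stayed at 11.3 CPM or less. The fibroblast list summed to 279 to 515 CPM on day 3 and 216 to 400.1 CPM on day 7, most of it in each library from Thy1 (183 to 440 CPM), which T cells also express.

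Between day 3 and day 7, 52 genes rose and 37 fell of 11249 tested, at an adjusted p under 0.05 (quasi-likelihood test of edgeR, Benjamini-Hochberg adjustment). Called genes made up 0.791% of the genes tested (0.462% higher and 0.329% lower). At this share most gene lists of the lengths used below would hold no called member, so 0 calls in a list is no result about its genes. Of the tested genes, 1623 had an unadjusted p under 0.05, and the median log2 fold change over all of them was 0.001. The CPM of the days did not overlap for 308 genes, 2.74% of those tested (1.44% with day 7 above and 1.3% below). Among the genes that rose were macrophage receptors and complement genes, including Clec4b1, Adgre1, Mrc1, C1qa, C1qb, C1qc and C3ar1, and among those that fell were the lymphocyte genes Il2ra, Rora, Ets1 and Cd69. The count depended on single libraries, with 1 called gene when day 7 replicate 2 was left out and 3 without day 7 replicate 1. Without both day 3 libraries rich in melanoma RNA, 136 genes were called (97 higher and 39 lower), of which 74 were also called with all 11 libraries.

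**Figure D1:**
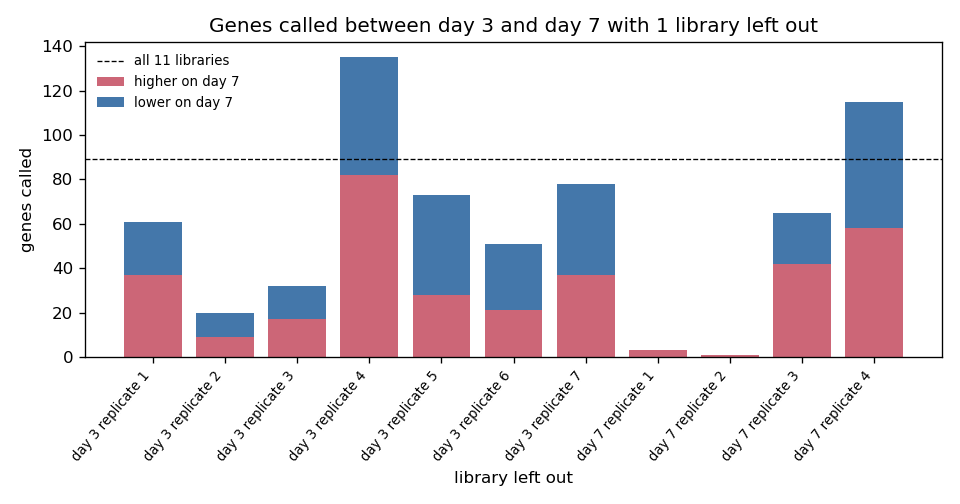
Number of genes called (y axis) in fits that each leave out 1 abscopal library (x axis), stacked by direction, with the dashed line at the 89 genes called with all 11 libraries. The count lay between 1 (without day 7 replicate 2) and 135 (without day 3 replicate 4).

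Clec4b1, a C-type lectin of the Dectin-2 cluster carried by myeloid cells, was the called gene with the smallest p. It had 9.32 to 22.8 CPM in the 7 day 3 libraries (median 13.8), and 90.0, 37.6, 40.8 and 28.9 CPM in day 7 replicates 1 to 4. All 4 day 7 libraries lay above each day 3 library, and replicate 1 stood highest. Its log2 fold change was 1.86 (standard error 0.26, adjusted p = 0.000264, edgeR), and no other gene was called both in all 11 fits without 1 library and under all 12 other settings. The gene lies on chromosome 6 of GRCm38 from 123049962 to 123071555 and overlaps no other annotated gene.

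Myeloid genes are often controlled by ETS-family factors such as PU.1, whose core is written here as GAGGAA, or TTCCTC on the other strand. To show the DNA before the starts of genes that rose, the 250 bases before the RefSeq start of 4 of them are given (GRCm38.p6), in the direction of transcription and with both forms of the core in capitals. The windows are chr6:123049712-123049961 (plus strand) for Clec4b1, chr2:14229164-14229413 (plus strand) for Mrc1, chr4:136886201-136886450 (minus strand) for C1qb and chr4:136892915-136893164 (minus strand) for C1qc. By GENCODE, which starts C1qc and Mrc1 further upstream, 151 bases of the C1qc window and 22 of the Mrc1 window lie inside the gene.
Clec4b1: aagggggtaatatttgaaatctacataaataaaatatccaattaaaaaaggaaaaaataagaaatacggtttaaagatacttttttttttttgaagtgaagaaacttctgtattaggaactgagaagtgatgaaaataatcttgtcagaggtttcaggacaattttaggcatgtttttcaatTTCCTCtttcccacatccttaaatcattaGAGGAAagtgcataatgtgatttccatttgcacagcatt
Mrc1: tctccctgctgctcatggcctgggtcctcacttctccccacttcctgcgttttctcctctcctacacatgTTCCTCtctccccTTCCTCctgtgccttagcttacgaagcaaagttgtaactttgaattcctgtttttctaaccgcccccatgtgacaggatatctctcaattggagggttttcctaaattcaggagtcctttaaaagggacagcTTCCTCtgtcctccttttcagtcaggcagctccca
C1qb: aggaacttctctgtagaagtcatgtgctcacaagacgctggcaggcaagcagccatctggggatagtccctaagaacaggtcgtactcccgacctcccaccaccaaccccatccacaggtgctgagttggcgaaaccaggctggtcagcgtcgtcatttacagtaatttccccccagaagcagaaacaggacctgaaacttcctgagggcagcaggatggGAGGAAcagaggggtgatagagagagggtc
C1qc: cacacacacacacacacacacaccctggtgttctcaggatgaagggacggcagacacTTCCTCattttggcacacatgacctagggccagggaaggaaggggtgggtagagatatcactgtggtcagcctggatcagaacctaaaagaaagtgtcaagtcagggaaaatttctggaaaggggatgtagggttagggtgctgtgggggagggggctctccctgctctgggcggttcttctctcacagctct
Taking the first window listed for each gene, 23.1% of 27025 genes held the core on either strand. It was present in 13 of the 38 genes called higher that matched a window, in 2 of 22 called lower, and in 11 of 19 matched genes of the macrophage and complement list. These are matches of letters and were not tested.

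The macrophage and complement list moved further than any other biology list by its median. Of 22 members tested, 6 were called higher and 0 lower, 21 had a positive log2 fold change and 14 an unadjusted p under 0.05 in that direction. The median log2 fold change was 0.73, against 0.001 over all genes. Summed over the list, day 3 libraries held 3277 to 3970 CPM apart from replicate 4 at 5286 CPM, and day 7 replicates 1 to 4 held 5381, 5410, 6419 and 5405 CPM. The groups did not overlap, but day 3 replicate 4 lay close to the day 7 libraries. The number called was 10 of 22, once day 3 replicates 1 and 4 were both left out. It was 1 without day 3 replicate 2, 3 or 6, and 0 without day 7 replicate 1 or 2.

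Adgre1 encodes F4/80, the adhesion receptor used to mark mouse macrophages. It had 39.9 to 75.3 CPM on day 3 (median 41.7) and 146, 107, 84.4 and 91.3 CPM on day 7, and its log2 fold change was 1.18 (standard error 0.23, adjusted p = 0.0135, edgeR). Day 3 replicate 4 held the 75.3 CPM, while the other 6 lay at 50.6 CPM or less. Mrc1, the mannose receptor CD206 that takes up glycoproteins, had 20.6 to 54.1 CPM on day 3 (median 30.6) and 181, 71.8, 85.7 and 56.6 CPM on day 7. Its log2 fold change was 1.60 (standard error 0.37, adjusted p = 0.0340), and the day 7 library of replicate 4 lay just above the highest on day 3. Leaving out 1 library kept Adgre1 called in 9 of 11 fits and Mrc1 in 4.

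The 3 chains of C1q, which starts the classical complement pathway and coats dying cells for uptake, are encoded side by side on chromosome 4 between 136880129 and 136898803. C1qc had 29.4 to 94.1 CPM on day 3 (median 63.9) and 151, 130, 158 and 127 CPM on day 7 (log2 fold change 1.22, standard error 0.29, adjusted p = 0.0340). C1qa had 81.3 to 253 CPM on day 3 and 345, 285, 218 and 373 CPM on day 7, so that replicate 3 of day 7 fell within the day 3 range (log2 fold change 1.09, adjusted p = 0.0411). C1qb, named after its values were seen, had 76.6 to 182 CPM on day 3 and 256, 251, 205 and 238 CPM on day 7 (log2 fold change 0.90, adjusted p = 0.0364). All 3 rose together, and each was called in only 2 or 3 of the 11 fits with a library left out. C3ar1, the receptor of the complement fragment C3a, had 131 to 192 CPM on day 3 (median 147) and 270, 281, 243 and 252 CPM on day 7, and its log2 fold change was 0.75 (adjusted p = 0.0290).

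**Figure D2:**
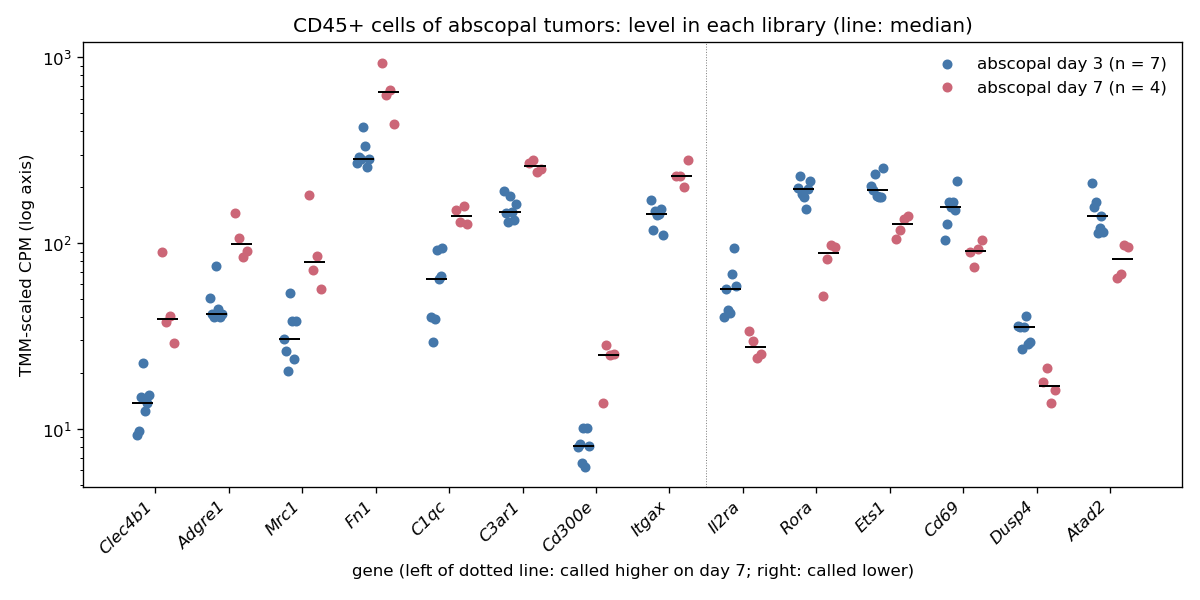
TMM-scaled CPM on a log axis (y) for 8 genes called higher and 6 called lower on day 7 (x), with 1 point per library of abscopal day 3 (blue, n = 7) and day 7 (red, n = 4) and a line at the median. The days did not overlap for 13 of the 14 genes, and those of Cd69 met at 104 CPM. All 14 were called genes, and most were chosen by a rule that required no overlap, which held for 2.74% of the genes tested.

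Some further genes that rose are known from myeloid cells, and they form no list fixed for the purpose. Cd300e, an activating receptor of monocytes, had 6.25 to 10.1 CPM on day 3 and 13.8, 28.2, 24.9 and 25.4 CPM on day 7 (log2 fold change 1.44, adjusted p = 0.0180, edgeR), and was called in 10 of 11 fits with a library left out. Adgre4, an adhesion receptor related to F4/80, had 6.76 to 13 CPM and then 15.2, 19.7, 31.8 and 27.7 CPM (log2 fold change 1.23, adjusted p = 0.0364), and was called in 2 of those 11 fits. Itgax (CD11c, an integrin of dendritic cells and macrophages), Clec12a (an inhibitory lectin of myeloid cells) and Btk (a kinase of B cells and myeloid cells) were named after their values were seen. Itgax had 111 to 172 CPM on day 3 and 230, 229, 200 and 282 CPM on day 7, with a log2 fold change of 0.74. Clec12a and Btk had log2 fold changes of 0.71 and 0.79, and the days did not overlap for either.

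Fn1, which encodes the matrix protein fibronectin and stood on the monocyte list, had 257 to 423 CPM on day 3 (median 283) and 937, 628, 670 and 438 CPM on day 7. Its log2 fold change was 1.13 (standard error 0.25, adjusted p = 0.0291), with day 7 replicate 4 just above the highest day 3 library. It was the only one of 14 monocyte genes called, in a list whose median was 0.29. Ccr2, the chemokine receptor that brings monocytes into tissue, showed a log2 difference of 0.64 (adjusted p = 0.101). Ly6c2, a surface marker of classical monocytes, had -0.31 (adjusted p = 0.692), with 449 to 1006 CPM on day 3 and 716, 518, 481 and 541 CPM on day 7.

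Of 15 genes of alternatively activated macrophages, Mrc1 alone was called, and 12 had a positive log2 fold change (median 0.56). Clec10a and Mgl2 encode lectins that bind galactose and N-acetylgalactosamine. Clec10a had 22.1 to 64.7 CPM on day 3 and 156, 76.1, 79.5 and 67.0 CPM on day 7, which did not overlap (log2 fold change 1.05, adjusted p = 0.0649). Mgl2 showed a log2 difference of 1.16 (adjusted p = 0.146), with 194 CPM in day 7 replicate 1 and 55.5 to 78.1 CPM in the other 3. Ear2, an RNase of eosinophils and monocytes, had 1.23 (adjusted p = 0.146). Retnla, a secreted protein induced by interleukin 4, ranged from 2.80 to 142 CPM on day 3 and was at 300.0, 66.7, 5.53 and 33.5 CPM on day 7, so its spread within each day exceeded the difference between them (log2 fold change 1.62, adjusted p = 0.367).

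Further genes named by the size of their rise do not share a single role. Rab3il1 (a Rab exchange factor, log2 fold change 1.37), Itga9 (an integrin chain, 1.54), Gatm (the first enzyme of creatine synthesis, 1.14), Nxpe5 (1.64) and Abcg3 (a transporter of the ABC family, 1.25) each rose, from means of 4.29 CPM (Itga9) to 11.9 CPM (Gatm) on day 3. The days did not overlap for these genes, which was a condition for naming them. With 1 library left out, Gatm was called in 1 of 11 fits, Itga9 and Nxpe5 in 3 and Rab3il1 and Abcg3 in 6. Gm4430, a predicted gene, rose by 1.41 on the log2 scale. Cdh1, the adhesion protein E-cadherin, was named after its values were seen. Cdh1 was on the melanoma list and is also made by some dendritic cells and macrophages. It had 23.6 to 31.3 CPM on day 3 and 70.4, 41.9, 42.9 and 35.8 CPM on day 7 (log2 fold change 0.84, adjusted p = 0.0394). The other 8 tested genes of that list had negative values, the list's median was -1.30 with all libraries and 0.87 without day 3 replicates 1 and 4, and Pmel and Dct had -1.22 and -1.45 (adjusted p = 0.573 and 0.367).

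Genes of antigen presentation on MHC class II had mostly positive values, and no member passed the test. Of 16 MHC class II genes tested, 0 were called and 10 had an unadjusted p under 0.05 in the upward direction, and the median was 0.54. Ctss, the protease that trims the invariant chain, came closest, with 1464 to 1811 CPM on day 3 and 2691, 2514, 2264 and 2033 CPM on day 7 (log2 fold change 0.54, adjusted p = 0.0508). H2-DMb1, which helps load peptides, showed a log2 difference of 0.86 (adjusted p = 0.0649), and H2-Eb1 and H2-Ab1, chains of the class II molecules themselves, had 0.69 and 0.60 (adjusted p = 0.0761 and 0.150). Their sums were 6167 to 10713 CPM on day 3 and 17032, 13941, 9840 and 10913 CPM on day 7, with replicate 1 the highest. The same day 7 library held 4594 CPM of B cell and immunoglobulin genes, against 1495, 634 and 651 CPM in the other 3 and 770 to 2455 CPM on day 3, and the part of B cells in the class II values was not tested. Without day 3 replicates 1 and 4, 2 of the 16 were called, and under other settings up to 6.

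Of 23 dendritic cell genes, 21 were positive and 0 called, at a median of 0.39 on the log2 scale. Batf3, a transcription factor needed for cDC1, had 0.88 (adjusted p = 0.159), Sirpa, a surface marker of cDC2, had 0.73 (adjusted p = 0.138) and Cd209a, a lectin of monocyte-derived dendritic cells, had 1.13 (adjusted p = 0.254). With 1 library left out, the values ran from 0.45 to 1.01 for Batf3, 0.53 to 0.89 for Sirpa and 0.52 to 1.32 for Cd209a. Xcr1, the chemokine receptor of cDC1, had 37.9 to 65.4 CPM on day 3 and 76.2, 63.3, 55.3 and 34.7 CPM on day 7 (log2 fold change 0.17, adjusted p = 0.779). Of 23 MHC class I genes 0 were called, 13 were positive and 10 negative, and the median was 0.01.

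**Figure D3:**
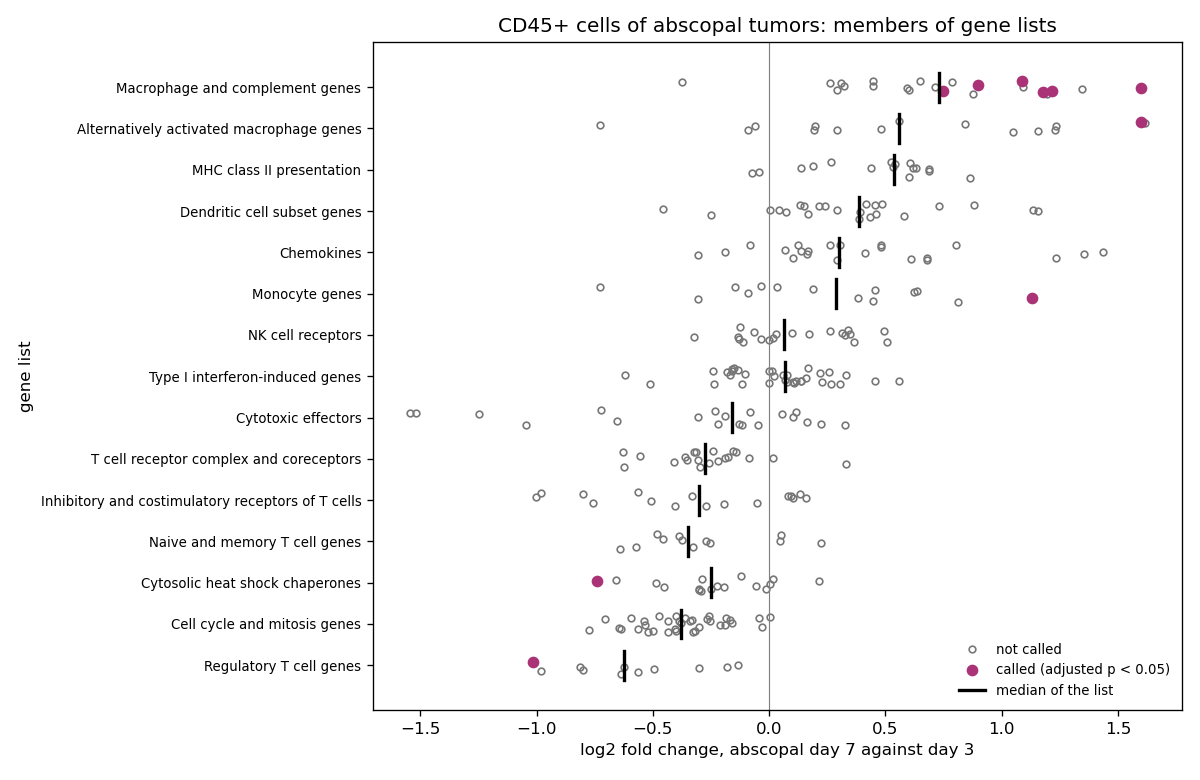
Log2 fold change of abscopal day 7 against day 3 (x axis) for each tested member of 15 gene lists (y axis), with filled points for called genes and a black bar at each list's median. Medians ran from 0.73 for macrophage and complement genes to -0.63 for regulatory T cell genes.

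On the lymphoid side, Il2ra and Rora were the leading genes that fell. Il2ra, the high-affinity chain of the interleukin 2 receptor (CD25), had 39.9 to 94.1 CPM on day 3 (median 56.6) and 33.9, 29.9, 24.2 and 25.4 CPM on day 7. Each day 7 library lay below each day 3 library, and the log2 fold change was -1.01 (standard error 0.21, adjusted p = 0.0169, edgeR). Rora, a nuclear receptor of innate lymphoid cells and T helper subsets, had 153 to 229 CPM on day 3 (median 195) and 51.7, 82.1, 98.2 and 95.9 CPM on day 7, and its log2 fold change was -1.25 (standard error 0.23, adjusted p = 0.0127). Both were called in 9 of the 11 fits with a library left out and were lost without day 7 replicate 1 or 2.

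All 11 regulatory T cell genes tested had negative values, with a median of -0.63, but Il2ra alone was called and 5 had an unadjusted p under 0.05. Their sum was 707, 975, 851, 916, 1004, 1138 and 971 CPM in day 3 replicates 1 to 7 and 479, 652, 544 and 653 CPM in day 7 replicates 1 to 4. The sums did not overlap between the days. Foxp3, the transcription factor that defines the cells, was counted sparsely, with 7.62 to 17.5 CPM on day 3 and 8.47, 9.40, 4.15 and 4.62 CPM on day 7 (log2 fold change -0.81, adjusted p = 0.364). Ctla4, the inhibitory receptor that binds CD80 and CD86, had 131 to 234 CPM on day 3 and 50.8, 93.2, 71.2 and 154 CPM on day 7, where replicate 4 lay within the day 3 range (log2 fold change -0.98, adjusted p = 0.104). Tnfrsf4, the costimulatory receptor OX40, had -0.80 (adjusted p = 0.0688). Ikzf2, the transcription factor Helios, had 261 to 336 CPM on day 3 and 143, 216, 190 and 231 CPM on day 7, with no overlap (log2 fold change -0.64, adjusted p = 0.0916). Other T cells also express Ctla4, Tnfrsf4 and Ikzf2, and Ikzf2 and Rora are found in NK and innate lymphoid cells as well.

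The T cell receptor genes are shared by regulatory and other T cells. The 20 genes of the T cell receptor complex and its coreceptors had a median of -0.28, with 18 negative and 0 called. Cd3e, a signalling chain of the receptor, had 109 to 152 CPM on day 3 and 62.9, 124, 84.4 and 171 CPM on day 7 (log2 fold change -0.35, adjusted p = 0.627). Cd8a, the coreceptor of cytotoxic T cells, had 138 to 253 CPM on day 3 and 100.3, 209, 223 and 195 CPM on day 7 (log2 fold change -0.14, adjusted p = 0.909). Cd4, the coreceptor of helper T cells, had -0.26 (adjusted p = 0.769). For Cd3e and Cd8a day 7 replicate 1 was the lowest of all 11 libraries, and the days overlapped for all 3 genes. Cd5 and Cd6, which dampen receptor signals, and the costimulatory receptor Cd28 had -0.62, -0.63 and -0.56 (adjusted p from 0.152 to 0.160).

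Cd69, Ets1 and Dusp4 also fell. Cd69, a lectin shown by recently activated and tissue-resident lymphocytes, had 104 to 217 CPM on day 3 and 90.0, 74.4, 92.6 and 104 CPM on day 7 (log2 fold change -0.79, adjusted p = 0.0315). Ets1, a transcription factor of lymphocytes, had 176 to 254 CPM on day 3 and 106, 118, 136 and 140 CPM on day 7 (log2 fold change -0.71, adjusted p = 0.0315). Both were named after their values were seen. Dusp4, a phosphatase that acts on MAP kinases, had 27.1 to 40.4 CPM on day 3 and 17.8, 21.4, 13.8 and 16.2 CPM on day 7 (log2 fold change -0.94, adjusted p = 0.0303).

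Of 16 inhibitory and costimulatory receptors, 0 were called, 4 had an unadjusted p under 0.05 in the downward direction, and the median was -0.30. Icos, a costimulatory receptor, had 235 to 358 CPM on day 3 and 125, 189, 151 and 212 CPM on day 7 without overlap (log2 fold change -0.76, adjusted p = 0.146). Pdcd1, which encodes PD-1, had 53.5 to 127 CPM on day 3 and 29.9, 98.3, 87.1 and 72.8 CPM on day 7 (log2 fold change -0.40, adjusted p = 0.672). Of 12 naive and memory T cell genes, 0 were called (median -0.35), with the transcription factor Lef1 at -0.64 and the chromatin organizer Satb1 at -0.57 (adjusted p = 0.192 and 0.204).

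**Figure D4:**
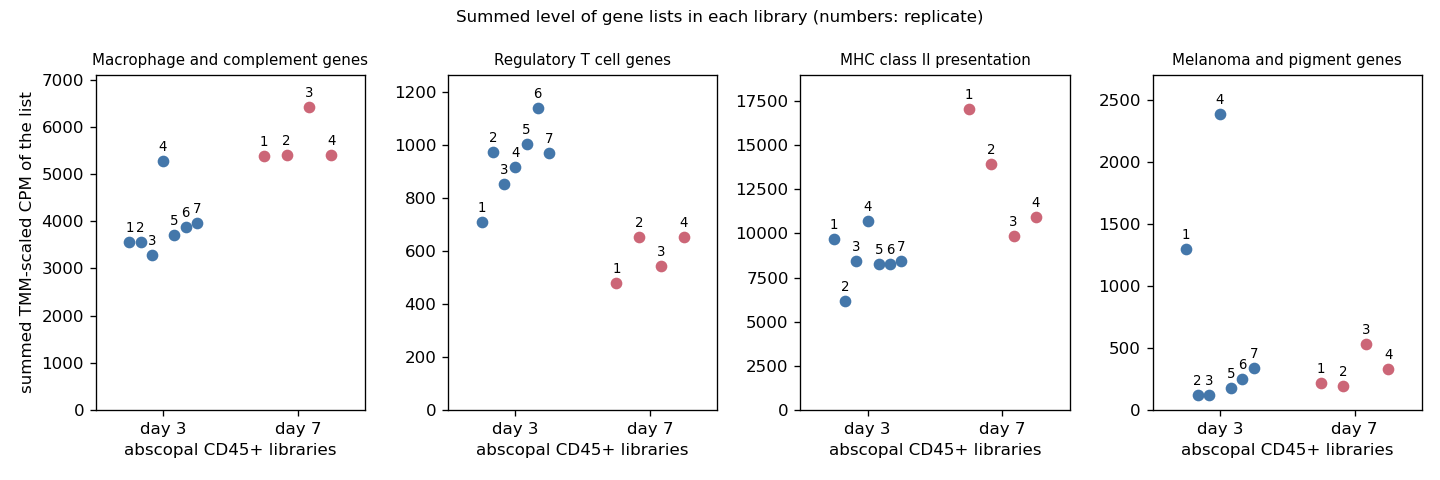
Summed TMM-scaled CPM (y axis) of 4 gene lists in each abscopal CD45+ library, with day 3 (blue) and day 7 (red) on the x axis and the replicate number above each point. Macrophage sums on day 7 (5381 to 6419) lay above those on day 3, regulatory T cell sums (479 to 653) lay below, and melanoma sums were highest in day 3 replicates 4 and 1.

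Cytotoxic and NK cell genes showed no called change, and with 0.791% of all tested genes called, lists this short would mostly hold none. Of 20 cytotoxic effectors 0 were called and the median was -0.16. Gzmb, a protease that kills target cells, ranged from 42.6 to 282 CPM on day 3 and was at 45.9, 82.1, 202 and 60.1 CPM on day 7 (log2 fold change -0.72, adjusted p = 0.593). Prf1, the pore-forming perforin, and Ifng, interferon gamma, had -0.22 and -0.12 (adjusted p = 0.886 and 0.924). Gzmc, another granzyme, had -1.25 (adjusted p = 0.437) and Eomes, a transcription factor of NK and CD8+ T cells, had -0.66 (adjusted p = 0.214), with no overlap between the days for Eomes. Ncr1, the NK receptor NKp46, had 21.2 to 41.1 CPM on day 3 and 55.7, 29.9, 28.4 and 31.2 CPM on day 7 (log2 fold change 0.37, adjusted p = 0.672). Cd244a, a receptor of NK cells, had 38.3 to 53.0 CPM on day 3 and 58.4, 55.6, 66.4 and 77.4 CPM on day 7, which did not overlap (log2 fold change 0.51, adjusted p = 0.0515), and the 20 NK receptors had a median of 0.06.

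No interferon, chemokine or inflammatory gene on the lists was called, against 0.791% of all tested genes, a share at which most such lists would hold none. Of 35 type I interferon-induced genes 0 were called, with a median of 0.07. Isg15, the interferon-induced ubiquitin-like protein, ranged from 178 to 575 CPM on day 3 and was at 315, 309, 523 and 203 CPM on day 7 (log2 fold change -0.15, adjusted p = 0.907). The 29 interferon gamma response genes had a median of 0.07 and 0 calls, and Cxcl9, a chemokine that draws T cells, had 0.41 (adjusted p = 0.656). Among 22 chemokines 0 were called and 19 were positive (median 0.30, where the upper quartile of all genes was 0.21), with Ccl8, a chemokine for monocytes, at 1.44 (adjusted p = 0.0942). Of 25 inflammatory genes 0 were called (median 0.01), with Il1b at 0.42 (adjusted p = 0.422). Of 22 immediate early genes 0 were called (median 0.18), although Ier3, an early response gene, had 772 to 1053 CPM on day 3 and 1108, 1932, 1963 and 1297 CPM on day 7 without overlap (log2 fold change 0.84, adjusted p = 0.129).

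Proliferation genes had negative values as a group. Of 35 cell cycle genes 34 were negative and 10 had an unadjusted p under 0.05, with a median of -0.38 and 0 called. Over all 11249 tested genes, 823 had an unadjusted p under 0.05 in the downward direction (edgeR). In sham control tumors the same list had a median of -0.29 between the days, and the median difference of the day changes was -0.09. Mki67, the marker of dividing cells, had 38.7 to 89.3 CPM on day 3 and 40.1, 41.9, 56.7 and 49.7 CPM on day 7 (log2 fold change -0.54, adjusted p = 0.145). Ccne2, a cyclin of S phase entry, and Rrm1, a subunit of ribonucleotide reductase, had -0.78 and -0.52 (adjusted p = 0.182 and 0.240). Dbf4, Atad2 and Cenpq, which are not on that list, were named by the size of their fall. Dbf4, the activator of the CDC7 kinase, had 56.1 to 75.2 CPM on day 3 and 29.9, 37.6, 37.3 and 38.1 CPM on day 7 (log2 fold change -0.85, adjusted p = 0.0316). Atad2, a bromodomain ATPase, had 114 to 210 CPM on day 3 and 65.1, 68.4, 98.2 and 95.9 CPM on day 7 (log2 fold change -0.84, adjusted p = 0.0295). Cenpq, a kinetochore protein, fell from a mean of 17.1 to 8.52 CPM (log2 fold change -1.02, adjusted p = 0.0315). Cenpq overlaps the gene Mut on the other strand, and it was called in 6 of 11 fits with a library left out.

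Of 17 heat shock chaperones, Hspd1 alone was called and 14 were negative, with a median of -0.25. Hspd1, the mitochondrial chaperonin, had 84.5 to 154 CPM on day 3 and 76.7, 69.2, 70.5 and 67.0 CPM on day 7 (log2 fold change -0.74, adjusted p = 0.0483), and it was called in 2 of 11 fits with a library left out. Its partner gene Hspe1 overlaps it, and strand use in counting is not stated. Hsph1 and Dnajb4, cytosolic chaperones, had -0.66 and -0.49 (adjusted p = 0.239 and 0.227). Further genes named by the size of their fall were Nfrkb (a chromatin remodelling subunit, -0.87), Rbm48 (an RNA-binding protein, -0.86), Zbtb43 (a zinc finger factor, -0.86), Supt20 (a subunit of the SAGA complex, -0.86) and Thoc1 (a subunit of the mRNA export complex THO, -0.85). Rbm48, Supt20 and Thoc1 overlap other annotated genes. Of the 37 genes called lower, 8 were annotated as something other than protein-coding, and of the 51 called higher with a match in the annotation, 0 were, against 11.2% of the 11050 tested genes with a match. All 8 overlapped another gene, as did 64.6% of the tested genes of this kind. Over all biotypes, 24 of the 51 genes called higher and 24 of the 37 called lower overlapped another gene, against 55.2% of the tested ones. The leading one, Gm25337, an snRNA gene within Gpatch8, had 5.99 to 16.8 CPM on day 3 and 4.90, 4.27, 2.07 and 2.31 CPM on day 7 (log2 fold change -1.61, adjusted p = 0.0315).

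Genes of cell death that bear on histotripsy showed no called change, where 0.791% of all tested genes were called and lists this short would mostly hold none. Of 18 genes of lytic cell death 0 were called (median 0.14). Hmgb1, the nuclear protein released by dying cells, had 110 to 214 CPM on day 3 and 91.4, 121, 78.1 and 119 CPM on day 7 (log2 fold change -0.60, adjusted p = 0.120), and its paralog Hmgb2 had -0.86 (adjusted p = 0.126). Casp8, the initiator caspase, had 62.6 to 91.3 CPM on day 3 and 138, 135, 107 and 116 CPM on day 7 without overlap (log2 fold change 0.63, adjusted p = 0.100). Mlkl, the pore former of necroptosis, had 0.04. Of 24 genes of ferroptosis and glutathione 0 were called (median 0.13). Slc7a11, the cystine transporter, had 83.2 to 208 CPM on day 3 and 72.7, 89.8, 316 and 105 CPM on day 7 (log2 fold change 0.19, adjusted p = 0.928). Gpx4, which detoxifies lipid peroxides, stayed under 11 CPM in each library (log2 fold change 0.14). Gpx1, the cytosolic glutathione peroxidase, and Alox5, a lipoxygenase, had 0.46 and 1.22 (adjusted p = 0.212 and 0.213). With 1 library left out, the value of Alox5 ran from 0.23 to 1.43.

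Neutrophil and B cell genes had no called member, where 0.791% of all tested genes were called and lists this short would mostly hold none. S100a8, a calcium-binding protein of neutrophils, ranged from 460 to 1433 CPM on day 3 and was at 198, 1082, 1132 and 770 CPM on day 7 (log2 fold change -0.22, adjusted p = 0.936), and the 19 neutrophil genes had a median of -0.06. Among 19 B cell genes (median -0.26), Iglc1, an immunoglobulin light chain, was at 224 CPM in day 7 replicate 1 and 4.15 to 32.5 CPM in the other day 7 libraries (log2 fold change 1.44, adjusted p = 0.295). Blk and Ebf1, a kinase and a transcription factor of B cells, had -1.48 and -1.46 (adjusted p = 0.317 and 0.318). Cd79a, a chain of the B cell receptor, had at most 4 counts in any of the 11 libraries and was not tested. Xist, the noncoding RNA of the inactive X, was at 546 to 681 CPM on day 3 and 397, 454, 562 and 874 CPM on day 7 (log2 fold change -0.11, adjusted p = 0.874).

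The change over time in abscopal tumors was then compared with that in sham control tumors, to ask whether the same days without ablation gave a like change. With edgeR, 0 of 11249 genes differed in their day change at an adjusted p under 0.05, and 716 had an unadjusted p under 0.05 (310 higher and 406 lower in abscopal tumors). DESeq2 called 1 gene. The smallest adjusted p was 0.0568, for Gpr137c. The abscopal libraries enter both comparisons of day changes, which are therefore not independent. The count of 0 does not show that the changes were alike.

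For Clec4b1, sham control libraries had 19.5 to 26.1 CPM on day 3 and 12.1 to 40.3 CPM on day 7, a log2 fold change of 0.18, and the difference of the changes was 1.68 (standard error 0.37, unadjusted p = 5.57e-05, adjusted p = 0.209). Fn1 had 417 to 914 CPM on day 3 and 375 to 897 CPM on day 7 in sham control tumors, so that 6 of the 7 abscopal day 3 libraries (257 to 336) lay below every sham control library, and 1 abscopal day 7 library (937 CPM) lay above them all. The difference of the changes was 1.14 for Fn1 (adjusted p = 0.725), 1.31 for Mrc1 (adjusted p = 0.747), 0.81 for Adgre1 (adjusted p = 0.747) and 0.82 for Clec12a (adjusted p = 0.684). Rora had 93.3 to 164 CPM on day 3 and 70.6 to 169 CPM on day 7 in sham control tumors (log2 fold change -0.22), and the difference of the changes was -1.03 (adjusted p = 0.695). Differences of -0.73 for Il2ra and -0.91 for Cd69 had adjusted p = 0.727 and 0.684. In treated tumors Clec4b1 had 17.8 to 24.9 CPM on day 3 and 23.6 to 49.2 CPM on day 7. There Rora had 92.0 to 199 and then 57.3 to 129 CPM, and Cd69 had 114 to 214 and then 93.8 to 117 CPM. No gene named in this paragraph differed in its day change between abscopal and treated tumors at an adjusted p under 0.05 (edgeR). By list, the median difference was 0.40 for macrophage and complement genes and -0.72 for regulatory T cell genes, where sham control tumors themselves had medians of 0.34 and 0.09.

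**Figure D5:**
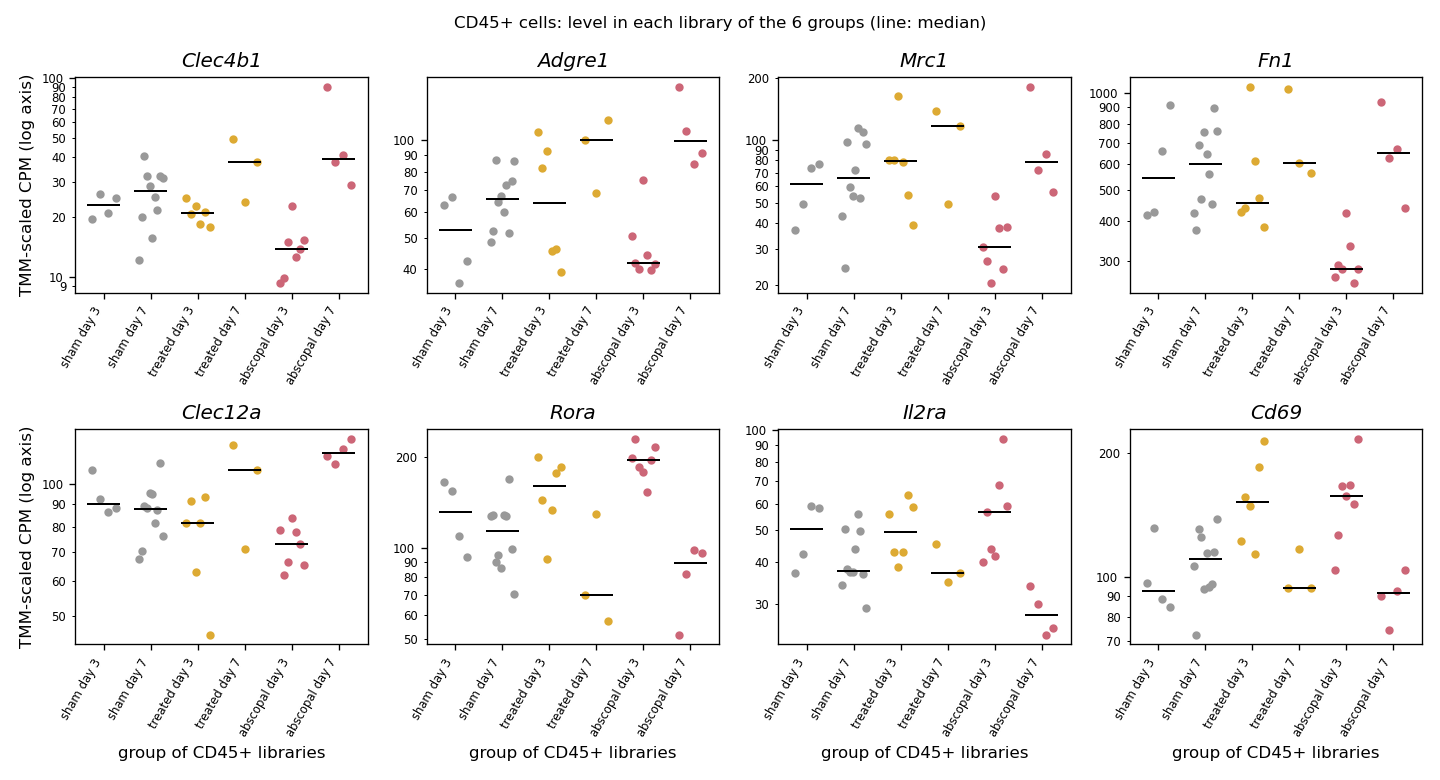
TMM-scaled CPM on log axes (y) of 8 genes in each CD45+ library of the 6 groups (x), with sham control in grey, treated in yellow and abscopal in red, and a line at the group median. Clec4b1 in abscopal tumors lay at 9.32 to 22.8 CPM on day 3 and 28.9 to 90.0 CPM on day 7, and in sham control tumors at 19.5 to 26.1 and 12.1 to 40.3 CPM.

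Against histotripsy-treated tumors, 10 genes differed in their day change (0.0889% of those tested), all with a higher value in abscopal tumors, and 1178 had an unadjusted p under 0.05. These were Cebpe, Tgm2, Egfr, P2ry13, Ppp1r3d, Dhx40, Gm4430, Ets2, Pde6h and Slc1a2. The 20 neutrophil genes summed to 5956 to 53522 CPM in treated tumors on day 3 and 6036 to 9721 CPM on day 7, against 4479 to 6559 and 4610 to 7617 CPM in abscopal tumors, and the part of neutrophils in these differences was not tested. Of the 10 genes, Cebpe and Gm4430 were also called in the abscopal comparison of the days. Cebpe, a transcription factor of granulocyte maturation, was sparse, with 0 to 1.59 CPM on day 3 and 5.35, 6.84, 3.46 and 3.47 CPM on day 7 in abscopal tumors (log2 fold change 2.47, adjusted p = 0.0169), 1.87 to 8.17 CPM on day 3 and 1.03 to 2.44 CPM on day 7 in treated tumors (-1.32), and a difference of 3.79 (standard error 0.73, adjusted p = 0.0374). Tgm2, a transglutaminase of macrophages and other cells, had 269 to 391 CPM and then 381 to 547 CPM in abscopal tumors (log2 fold change 0.55, adjusted p = 0.158), against 421 to 1076 and then 313 to 393 CPM in treated tumors, and a difference of 1.55 (adjusted p = 0.0374). For Egfr, a growth factor receptor, P2ry13, a purine receptor, and Ppp1r3d, a glycogen-targeting phosphatase subunit, the treated values were -4.09, -1.75 and -1.94 and the abscopal ones 0.35, 0.89 and 0.48, none of the abscopal ones called. For Egfr the treated day 3 libraries had 4.99 to 20 CPM, and the highest abscopal library had 5.53 CPM. The count of 10 was 0 without any 1 of the 3 treated day 7 libraries and 95 without treated day 3 replicate 5.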

How the data were processed

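Flow-sorted CD45+ cells were profiled by QuantSeq, which reads the 3′ ends of transcripts. Per the labels and the study's methods, reads were trimmed by the authors (Trim Galore 0.5.0), collapsed by unique molecular identifier, aligned to GRCm38 (STAR 2.6.0) and assigned to genes by featureCounts. The deposited values are raw counts without normalization, 1 table per day. The strand setting is not given in the sources used here, so values of overlapping genes are uncertain. Collapsed counts stand for molecules, within errors of the identifiers. Each table had 55487 named lines, of which 234 shared a symbol and were summed, and 1 unnamed line equal to 100% of the totals, which was dropped. Of the columns, 0 had no sample. Tables of CD45- cells were not used here.

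The tables were joined by symbol and tested in R 4.3.3 with edgeR 4.0.16: TMM scaling, filterByExpr (minimum count 10, minimum total 15), 1 term for each of 6 CD45+ groups, the quasi-likelihood test (robust, two-sided) and Benjamini-Hochberg adjustment at 0.05. Differences of day changes were contrasts of that fit. CPM are TMM-scaled, and p-values in the text are from this test. No 2 abscopal libraries of a day agreed within sampling noise (smallest chi-square per degree of freedom 3.11). CT010467.1, an rRNA gene, took 6.66% to 16.0% of the counts. A 3′ count does not scale with transcript length. Precision is set by the depths and by 7 and 4 libraries.

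Members and lists (24 of biology, 9 of markers) were chosen with earlier results of these data known. Named genes were 28 fixed ones; up to 12 each way, called, at 10 CPM or more in the higher group, without overlap and with the largest change (predicted genes once each way); up to 4 per list by p; up to 5 by p per contrast of day changes; and the top member of a marker list. Others are said to be chosen after their values were seen, or are given as the complete list of 10. Positions are from GENCODE vM21 (11050 of 11249 symbols matched). Alternatives were DESeq2 1.42.0, limma-voom (limma 3.58.1), library totals or median-of-ratios factors, other filters, only the groups compared, libraries of 1000000 counts or more, CT010467.1 left out, Xist as a covariate, the replicate number as a block, each library left out and, chosen after seeing the data, day 3 replicates 1 and 4 left out.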

Additional observations from a re-analysis of the deposited data

Results flagged for a closer look

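A single library lay far from the rest of its group by Dixon's gap test for 14 of the 196 groups of values examined (98 named genes on 2 days), 7.1% where chance flags about 1 in 20. Day 7 replicate 1 was the distant library for 5 genes, with the highest values of Clec10a (156 CPM), Mgl2 (194 CPM), Ncr1 (55.7 CPM) and Iglc1 (224 CPM) and the lowest of Dbf4 (29.9 CPM). Day 7 replicate 3 was highest for Gatm (35.3 CPM), Slc7a11 (316 CPM) and Pmel (60.2 CPM). On day 3, replicate 4 was highest for Adgre1 (75.3 CPM) and Pmel (251 CPM), replicate 1 for Nfrkb (69.9 CPM), replicate 2 for Slc7a11 (208 CPM) and replicate 5 for Retnla (142 CPM), and replicate 7 was lowest for Gm4430 (2.25 CPM).

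The change between the days differed between abscopal and treated tumors for 10 genes, with log2 differences of 3.79 for Cebpe, 1.55 for Tgm2, 4.44 for Egfr, 2.64 for P2ry13, 2.42 for Ppp1r3d, 1.93 for Dhx40, 2.06 for Gm4430, 1.43 for Ets2, 2.63 for Pde6h and 4.53 for Slc1a2 (adjusted p = 0.0374 for each, edgeR). Of the 20 fits that left out a library, Cebpe and Tgm2 were called in 11 each and the other 8 genes in 5 to 9.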

How the results depend on the processing

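Of 89 genes called between the days, 0 changed sign in 23 other fits and 17 were called under all 12 alternatives other than leaving out 1 library, but the count moved. It was 163 with DESeq2, 186 with no filter on low counts, 44 with Xist as a covariate and 136 without day 3 replicates 1 and 4 (chosen after seeing the data), and lay between 67 and 118 under the other settings except the block. With 1 library left out it ran from 1 to 135, and it moved by over 1.5 times without day 3 replicate 2 (20), 3 (32), 4 (135) or 6 (51) and day 7 replicate 1 (3) or 2 (1). The replicate number as a block gave 50 calls (40 of the 89) and, for abscopal against treated tumors, 23. Day 3 and day 7 libraries with the same number did not deviate together (correlations of -0.09 to 0.07). Between treated and abscopal libraries of a day, which can share a mouse, same-numbered correlations ran from 0.018 to 0.326, and 4 of 9 treated libraries correlated best with their own number. In sample order, treated day 3 libraries from replicate 3 on follow an abscopal library of the next higher number, so equal numbers may mark different mice. Treated replicates 5 and 6 correlated best with abscopal 6 and 7 (0.155 and 0.305), but replicates 3 and 4 with 7 and 4 (0.174 and 0.125). The labels do not say that a number marks a mouse, so a pairing was neither shown nor excluded, and the block by number may not hold it.

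The comparison with sham control tumors gave 1 gene with DESeq2, 1 with library totals and 3 with no filter, and 0 to 1 with a library left out. The 10 genes against treated tumors became 47 with DESeq2, 75 with no filter, 6 without day 3 replicates 1 and 4, and 0 with limma-voom, library totals, the 10 CPM filter, only the groups compared, libraries of 1000000 counts or more, or Xist as a covariate. With a library left out they ran from 0 to 95, and the cause was not tested.

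Of 2239 log2 values of single named genes under alternatives, 26 changed sign, none of a gene called with all libraries. They were Slc7a11 with limma-voom (-0.0147), Isg15 with libraries of 1000000 counts or more (0.0141), Mlkl and Gpx4 with Xist as a covariate (-0.0737 and -0.0537), Ifng and Mlkl with the block (0.011 and -0.128) and Pmel and Dct without day 3 replicates 1 and 4 (0.9125 and 0.6006), and the rest came from leaving out 1 library. Over those fits the values ran from -0.5438 to 0.4197 for Slc7a11, -0.4581 to 0.0202 for Isg15, -0.077 to 0.1807 for Mlkl, -0.307 to 0.3751 for Gpx4, -0.284 to 0.0357 for Ifng, -2.3228 to 0.1224 for Pmel, -0.0189 to 0.3218 for Xcr1, -0.2757 to 0.0602 for Cd8a, -0.3459 to 0.0059 for Prf1, -0.4597 to 0.0955 for S100a8, -0.1865 to 0.0059 for Ptprc, -0.3853 to 0.0315 for Xist and -0.6577 to 1.891 for Iglc1. Of 168 counts of called members of a list (those at 0 in both fits left out), 96 moved by over 1.5 times or to or from 0, and of 758 list medians, 11 moved by more than the SD of the list's mean log2 level between libraries of a day. With 4 day 7 libraries and genes of a few counts, such as Cebpe, Foxp3 and Egfr, small differences were not detectable at this depth.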

Other observations

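Lists of blood-derived cells whose values depended most on the control group are given here as values, with no test of a list. Between the days, the median log2 value of neutrophil genes was -0.06 in abscopal tumors and 0.93 in sham control tumors. B cell genes had -0.26 and 0.72, and 6 erythroid genes had 0.05 and 1.92. Single genes of these lists did not pass the test of the difference.

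Platelet genes had a median of 1.34 in abscopal tumors over only 3 tested members, and the 4 tested genes of mast cells, basophils and eosinophils had 0.24. The 29 genes of glycolysis and hypoxia had 0.10. Fibroblast (3 tested), endothelial (5), keratinocyte (2) and skeletal muscle (2) genes had medians of -0.41, -0.05, -0.31 and 0.17, with 0 called in each.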
